A study of Drosophila melanogaster with 14 samples.

Results

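The comparison described here sets Ho17 against WT17, that is, embryos homozygous for a deletion of both *spalt* genes against wild type embryos, at early stage 17. Its members are the 3 libraries Ho17a, Ho17b and Ho17c and the 2 libraries WT17ab and WT17c, 5 of the 14 mRNA-Seq libraries of the series, chosen by the genotype and stage in their titles. Ho17 embryos carried *Df(2L)32FP-5* on both second chromosomes and were picked as the GFP-negative progeny of a stock that keeps the deficiency over a GFP-marked CyO balancer, a stock whose other chromosomes had been replaced by back-crossing. He17 embryos, used beside them, came from the cross of that stock with *white* males and carried 1 copy of the deficiency (2 libraries). WT17 embryos came from Oregon R. Pools of whole embryos gave the poly-A RNA of each library, and the ab libraries joined technical replicates of experiments a and b. Ho17 and WT17 thus differed in strain background as well as in the *spalt* genes, and these cannot be told apart in this comparison. He17 held 1 set of chromosomes from the mutant stock and is given beside the named genes for that reason. Its other set came from *white* males and not from Oregon R. He17 and WT17 thus differed in strain as well, and strain and the number of *spalt* copies cannot be told apart there either. The stage field of the public labels gave stage 16 also for the stage 17 samples, and the stage in the titles was used. Whole embryos were sequenced, so fewer cells of a type and less RNA per cell cannot be told apart.

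*spalt major* (*salm*) and *spalt-related* (*salr*) are neighbouring genes on chromosome arm 2L that encode zinc finger transcription factors. In the *Drosophila* embryo they are needed for the head and tail regions, for the dorsal trunk of the tracheal system and for choices of cell fate in the peripheral nervous system, where their loss removes the oenocytes, hepatocyte-like cells under the larval cuticle that make very long chain lipids. They are also expressed in the central nervous system (CNS), and the study chose stage 17 as the time at which the damage seen in the CNS of mutant embryos at stage 16 recedes. The comparison asks which transcripts differ between mutant and wild type embryos at that time.

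The libraries held between 18613745 and 19211371 reads on genes in Ho17, 17381111 and 22558727 in He17, and 13464932 and 23213627 in WT17. A gene at 0 reads may have had up to 3, which is 0.156 to 0.161 reads per 1000000 reads on genes (CPM) in Ho17 and 0.223 and 0.129 CPM in WT17ab and WT17c, a limit that covers counting error only. Levels below are CPM of the reads recovered from the deposited values, and differences are on the deposited log2-like scale, which is not that of log2 folds. A 10-fold step, 3.32 on a log2 scale, moved the deposited value by 2.12 to 2.5 between 10 and 100 reads, by 3.57 to 3.95 between 100 and 1000 reads and by 4.13 to 4.27 between 1000 and 10000 reads, so the scale understates folds of genes with few reads and overstates those of genes with many. The libraries of a group were not alike. The spread of a library around its group mean was between 0.58 and 0.67 (SD over genes) in Ho17 and 0.51 in WT17, and Ho17a, Ho17b and WT17ab each stood apart for a family of genes given below. The ab libraries had more genes at exactly 1 read (543 in WT17ab and 512 in He17ab) than the other 5 (46 to 79). Reads in WT17ab and 0 in the deeper WT17c were found for 1382 genes (median of 3 reads in WT17ab), and the reverse for 113. Folds given below as at least a value rest on the limit of 3 reads. They do not cover a loss of low counts beyond counting error. The letters a, b and c mark separate experiments, and p-values measure the spread between these pools of embryos.

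The deleted genes were nearly absent in Ho17 embryos. The level of *salm* (CG6464) was 5.16, 0 and 0.893 CPM in Ho17a, Ho17b and Ho17c, 45.9 and 59.4 CPM in He17ab and He17c, and 57.0 and 68.3 CPM in WT17ab and WT17c. *salr* (CG4881) was at 0.645, 0 and 0.105 CPM in Ho17, 35.2 and 38.4 CPM in He17, and 44.8 and 57.4 CPM in WT17. Every Ho17 library lay far below both others, with some reads left in Ho17a. *salr* fell by 6.99 on the log2 scale (SE 0.63, adjusted p = 0.00216, limma), and *salm* fell by 6.24 (SE 1.02, adjusted p = 0.0352, limma). The call of *salr* was lost without WT17c (adjusted p = 0.0535, limma), and that of *salm* was kept in 3 of the 7 fits that leave out 1 library, with an adjusted p of up to 0.258. *sala*, the gene beside them that is not a *spalt* gene, had 21.9, 4.32 and 13.2 CPM in Ho17, 4.83 and 8.60 CPM in He17, and 1.26 and 0 CPM in WT17. The groups did not overlap, but the difference of 4.11 (SE 0.94) did not pass the test (adjusted p = 0.109, limma).

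**Figure D1:**
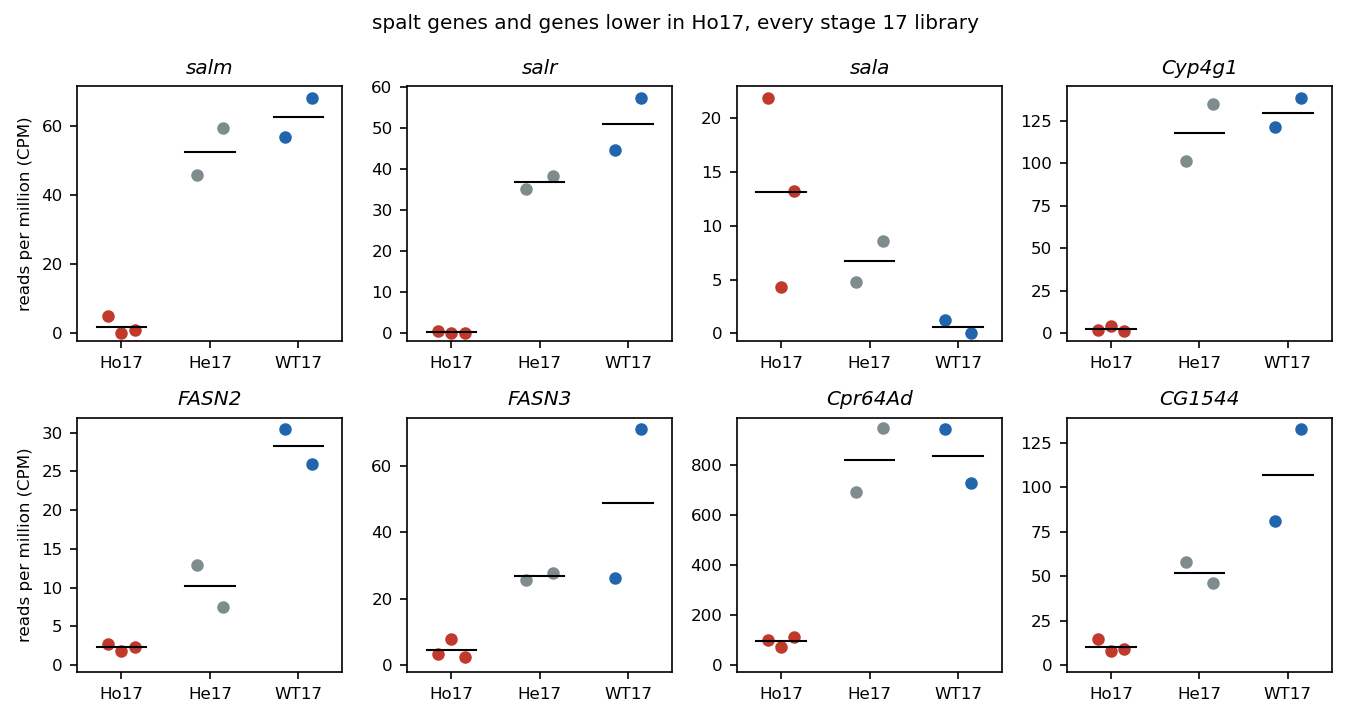
Levels of *salm*, *salr*, *sala* and genes lower in Ho17 (CPM, vertical axes, linear from 0) in the 3 Ho17, 2 He17 and 2 WT17 libraries, each point 1 library and each line the group mean. *Cyp4g1* lies between 1.37 and 4.27 CPM in Ho17 and between 101 and 139 CPM in He17 and WT17, whereas *FASN2* is lower in He17 than in WT17 as well.

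Of 11280 genes tested, 27 were higher in Ho17 than in WT17 (0.239%) and 44 were lower (0.39%) at an adjusted p under 0.05 (limma with Benjamini-Hochberg adjustment over all genes tested), 71 in all (0.629%). As background, the Ho17 libraries all lay above both WT17 libraries for 13.7% of the genes tested and below them for 15.9%, and the groups of all 71 did not overlap. The median difference of all genes tested was -0.03. The median of the 27 was 2.84 and that of the 44 was -2.63, values that follow from the call itself. Genes that share reads were counted separately, and the 27 and 44 held 26 and 42 distinct read profiles. The counts and the genes called depended on single libraries. Of the 27, 7, 15 and 23 were still called without Ho17a, Ho17b and Ho17c in turn, and of the 44, 14, 34 and 39. Without either WT17 library or either He17 library, which leaves 1 in that group, most of the 27 and most of the 44 lost their call. Without Ho17a, Ho17b and Ho17c in turn, 7, 43 and 87 genes were higher and 15, 40 and 62 lower, without He17ab and He17c 11 and 10 were higher and 18 and 18 lower, and without WT17ab and WT17c 28 and 7 were higher and 15 and 4 lower. *Ser6*, *CG1304*, *Spn42De* and *Ir40a* among the higher genes and *Cyp4g1*, *Cpr64Ad* and *CG1544* among the lower ones were called in all 7 of these fits. Without WT17c, 5 of the 27 and 3 of the 44 were still called, and it is the library whose absence gave most of these genes their highest adjusted p. Each of the 71 kept its direction under every alternative run. As their groups did not overlap, leaving out a library could not have turned it. The authors' kind of test, exact under a negative binomial model, called from recovered reads 357 genes higher (3.16%) and 334 lower (2.96%), and these included all 71.

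The largest rises were in genes that WT17 embryos hardly expressed. *Ser6* and *CG1304*, adjacent genes on the X chromosome that encode serine proteases, had 33.4, 48.4 and 30.2 CPM and 31.2, 55.6 and 25.9 CPM in Ho17a, Ho17b and Ho17c, and 0 reads in both WT17 libraries. Against the 3 reads that a count of 0 allows in each library, *Ser6* was at least 212-fold higher and *CG1304* at least 213-fold higher in Ho17 (adjusted p = 0.000272 and 0.00183, limma). In He17, *Ser6* had 11.7 and 24.7 CPM and *CG1304* 3.05 and 11.6 CPM. *Spn42De*, a serpin, a class of serine protease inhibitor, had 13.2, 24.05 and 10.03 CPM in Ho17, 7.77 and 8.60 CPM in He17 and 0 reads in WT17, at least 89.6-fold higher in Ho17 (adjusted p = 0.00194, limma). The cap-binding factor gene *eIF4E3*, named after its values were seen, was likewise at 0 reads in both WT17 libraries and had 3.01 to 7.55 CPM in Ho17 and 3.85 and 11.0 CPM in He17 (adjusted p = 0.0198, limma). For all 4 genes He17 lay above WT17. *Ser6* and *Spn42De* were also the only 2 genes higher in He17 than in WT17 (0.0177% of genes tested; differences of 6.32 and 5.18, adjusted p = 0.00680 and 0.0438, limma), while none was lower at that threshold.

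Further genes rose from a measurable level. *Ir40a*, which encodes an ionotropic receptor of the antenna, had 49.96, 85.4 and 74.5 CPM in Ho17, 14.6 and 29.4 CPM in He17 and 1.04 and 5.73 CPM in WT17, a difference of 5.02 (SE 0.58, adjusted p = 0.00860, limma). *beat-Vb*, a member of the Beat family of immunoglobulin proteins related to axon guidance, averaged 74.4 ± 20.1 CPM in Ho17 (SD, n = 3), 27.7 ± 12.1 CPM in He17 and 11.7 ± 3.34 CPM in WT17 (SD, n = 2 each; difference 3.21, SE 0.46, adjusted p = 0.0199, limma). *Spn28Dc*, another serpin, had 67.4, 72.9 and 67.2 CPM in Ho17, 39.3 and 19.0 CPM in He17, and 16.2 and 16.4 CPM in WT17 (difference 2.58, SE 0.38, adjusted p = 0.0236, limma). In *CG8160* and *CG7294*, genes without an assigned role here, Ho17 stood above He17 and WT17, which overlapped. *CG8160* had 564, 546 and 218 CPM in Ho17, 61.0 and 30.5 CPM in He17 and 23.8 and 35.4 CPM in WT17 (difference 4.85, SE 0.54, adjusted p = 0.00860, limma), and it was the 1 gene that was also higher in Ho17 than in He17 (0.00887% of genes tested; adjusted p = 0.0319, limma). *CG7294* had 994, 1222 and 407 CPM in Ho17 and between 42.0 and 105 CPM in the other 4 libraries (difference 4.41, SE 0.62). Both genes were lowest of Ho17 in Ho17c. The call of *CG8160* was kept in 5 of the 7 fits that leave out 1 library (adjusted p of up to 0.0694, without WT17c), that of *beat-Vb* in 5, that of *Spn28Dc* in 4 and that of *CG7294* in 3.

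The rest of the 15 higher genes with the largest differences and at least 10 CPM in Ho17 were *CG14265*, *CG17571*, *CG17350*, *GstE6*, *GstD5* and the pair *CG42662* and *CG30080*, which share all their reads. *CG14265* had 415, 317 and 366 CPM in Ho17, 202 and 184 CPM in He17 and 74.0 and 25.7 CPM in WT17. It overlaps *dnc*, the cAMP phosphodiesterase gene *dunce*, which was higher as well (429 to 557 CPM in Ho17 against 190 and 106 CPM in WT17, adjusted p = 0.0352, limma), and without strand their reads cannot be assigned to either gene with certainty. *GstE6* and *GstD5* encode glutathione S-transferases. *GstE6* had 77.5, 97.4 and 44.5 CPM in Ho17, 73.6 and 52.1 CPM in He17, and 6.02 and 19.0 CPM in WT17, so that He17 was close to Ho17. *GstD5* had 18.9, 25.9 and 13.9 CPM in Ho17, 3.57 and 0.842 CPM in He17, and 1.34 and 2.76 CPM in WT17, so that He17 was close to WT17. Both calls were kept in 1 of 7 fits without 1 library. Of the other genes called higher, the mucin gene *Muc26B* had the highest level in Ho17 (1130, 968 and 631 CPM in Ho17 against 273 and 365 CPM in WT17).

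Genes of the oenocytes were lower in Ho17. *Cyp4g1*, the oenocyte cytochrome P450 that completes the synthesis of cuticular hydrocarbons, had 1.99, 4.27 and 1.37 CPM in Ho17a, Ho17b and Ho17c, 101 and 135 CPM in He17, and 121 and 139 CPM in WT17. It fell by 6.40 on the log2 scale (SE 0.41, adjusted p = 0.000272, limma), a mean level 51.1 times higher in WT17, and it was also lower in Ho17 than in He17 (adjusted p = 0.000774, limma). *FASN2* and *FASN3*, fatty acid synthases of the oenocytes, averaged 2.31 ± 0.46 and 4.62 ± 2.88 CPM in Ho17 (SD, n = 3) and 28.2 ± 3.22 and 48.7 ± 31.7 CPM in WT17 (SD, n = 2), with differences of -3.57 (SE 0.40, adjusted p = 0.00860, limma) and -3.67 (SE 0.56, adjusted p = 0.0270, limma). *CG18609*, a gene of the fatty acid elongase family, had 0 reads in all 3 Ho17 libraries, 6.62 and 4.88 CPM in He17, and 4.83 and 5.94 CPM in WT17, at least 34.0-fold lower in Ho17 (adjusted p = 0.0198, limma). These 4 were the called members among 29 tested genes of a list of oenocyte lipid genes. None was called higher, although 9 had a positive difference. All Ho17 libraries lay below both WT17 libraries for 17 of the 29 (15.9% of all genes tested), and the median was -0.78. Elongase and reductase genes that did not pass the test were also at 0 reads in all Ho17 libraries, among them *CG17562* (2.08 and 3.32 CPM in WT17, adjusted p = 0.0550, limma), *CG17560*, *CG6660* and *CG8534*. Other members were not low. *CG31522*, another elongase gene, had 396 to 781 CPM in Ho17 against 315 and 594 CPM in WT17, and the fatty acid desaturase genes *CG9743* and *CG9747* overlapped between the groups, so the summed level of the list was 2511 to 2937 CPM in Ho17 against 2575 and 3266 CPM in WT17. The calls of *FASN2*, *FASN3* and *CG18609* were lost without WT17c, with adjusted p-values of up to 0.0694, 0.201 and 0.201.

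Further genes were found in WT17 and hardly in Ho17. *Cyp4p2*, a cytochrome P450 gene, had 0 reads in all Ho17 libraries, 0.690 and 0 CPM in He17, and 11.9 and 24.2 CPM in WT17, at least 114-fold lower in Ho17 (adjusted p = 0.0229, limma). *CG13946* had 0.430, 0 and 0 CPM in Ho17, 0.690 and 0.443 CPM in He17, and 10.5 and 20.7 CPM in WT17 (difference -5.39, SE 0.84, adjusted p = 0.0304, limma). For these, He17 was as low as Ho17 or nearly so. *CG13239* behaved otherwise, with 2.58, 7.44 and 7.83 CPM in Ho17, 76.7 and 78.2 CPM in He17 and 66.99 and 132 CPM in WT17 (difference -4.79, SE 0.49, adjusted p = 0.00506, limma). Named after their values were seen, *CG5255*, *CG4017* and *CG31954* were at 0 reads in all Ho17 libraries and had between 2.93 and 9.89 CPM in each He17 and WT17 library, at least 36.8-fold, 38.2-fold and 27.3-fold lower in Ho17 than in WT17. *CG1544*, which encodes a protein of the 2-oxoglutarate dehydrogenase family, averaged 10.4 ± 3.82 CPM in Ho17, 51.9 ± 8.49 CPM in He17 and 107 ± 36.7 CPM in WT17 (SD, n = 3, 2 and 2; difference -4.14, SE 0.38, adjusted p = 0.00216, limma), and *CG9360* averaged 11.9 ± 3.59, 17.2 ± 5.52 and 80.8 ± 5.40 CPM (difference -3.45, SE 0.40, adjusted p = 0.00860, limma). *CG7910* and the pair *CG10570* and *CG42502*, which share all their reads, completed the 15 lower genes with the largest differences and at least 10 CPM in WT17, with 0.0537 to 1.67 and 2.29 to 9.51 CPM in Ho17 against 11.4 and 17.02 CPM and 37.95 and 29.0 CPM in WT17.

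A few structural genes of the cuticle fell. *Cpr64Ad*, a chitin-binding cuticular protein gene, had 99.0, 71.8 and 113 CPM in Ho17, 691 and 945 CPM in He17, and 943 and 726 CPM in WT17 (difference -3.91, SE 0.33, adjusted p = 0.00194, limma). *TwdlD* and *TwdlW* of the Tweedle family of cuticular proteins were at 574 to 704 CPM and 94.9 to 229 CPM in Ho17 against 1412 and 2148 CPM and 717 and 630 CPM in WT17 (differences -1.53 and -2.63, adjusted p = 0.0318 and 0.0352, limma). He17 lay with WT17 for all 3. They were the called members of 111 tested cuticular protein genes, whose median was -0.24. Of the 111, 26 had all Ho17 libraries below WT17 (15.9% of all genes tested) and 15 had them above (13.7%). Members with differences in the other direction did not pass the test, such as *TwdlO*, with 192, 291 and 11.4 CPM in Ho17 and 6.16 and 32.1 CPM in WT17 (adjusted p = 0.374, limma). In a row of 6 adjacent genes on 3L, every gene was lower. *CG14096*, *CG32214*, *825-Oak*, *CG12519*, *CG18294* and *CG32213* had between 17.2 and 53.5 CPM in every Ho17 library and between 82.6 and 256 CPM in every He17 and WT17 library. Of these, *CG12519* had the largest difference (-2.84, SE 0.33, adjusted p = 0.00860, limma). Of the 6, 4 were also lower in Ho17 than in He17, and neighbouring family members of this kind may share reads. All calls of the block were lost without WT17c, with adjusted p-values of up to 0.279.

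Several of the other lower genes encode enzymes. *Adh*, the alcohol dehydrogenase of the fat body and gut, had 263, 189 and 235 CPM in Ho17, 457 and 238 CPM in He17, and 835 and 1213 CPM in WT17 (difference -2.54, SE 0.35, adjusted p = 0.0198, limma). Its reads are the same as those of *Adhr*, which is transcribed with it, and both lie within *osp*, which was lower too, so the 3 are not separate measurements. *sgl*, which encodes UDP-glucose dehydrogenase, had 147, 133 and 151 CPM in Ho17, 160 and 198 CPM in He17, and 356 and 512 CPM in WT17 (SE of the difference 0.27, adjusted p = 0.0198, limma), a mean level 3.02 times higher in WT17. *Taldo*, the transaldolase gene, had 50.5 to 69.7 CPM in Ho17 against 148 and 211 CPM in WT17. *GstE1*, a glutathione S-transferase gene near *GstE6*, had 11.7, 11.5 and 8.04 CPM in Ho17, 16.9 and 29.6 CPM in He17, and 50.9 and 46.6 CPM in WT17 (difference -2.67, SE 0.39, adjusted p = 0.0215, limma). Other lower genes were *Gss2* (glutathione synthetase), *Jheh3* (juvenile hormone epoxide hydrolase), *Idgf5* (a chitinase-like growth factor) and *NimB2* (a Nimrod protein of the immune system), which were between 2.34 and 3.41 times higher in mean level in WT17. *DIP-epsilon*, an immunoglobulin protein that binds Dpr proteins on neurons, had 10.6, 17.6 and 14.0 CPM in Ho17 against 46.5 and 48.5 CPM in WT17, but it overlaps *CG42369*, also lower, and the kit did not keep strand. No call of these enzyme and other genes was kept in all 7 fits that leave out 1 library, and that of *Gss2* was kept in none.

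**Figure D2:**
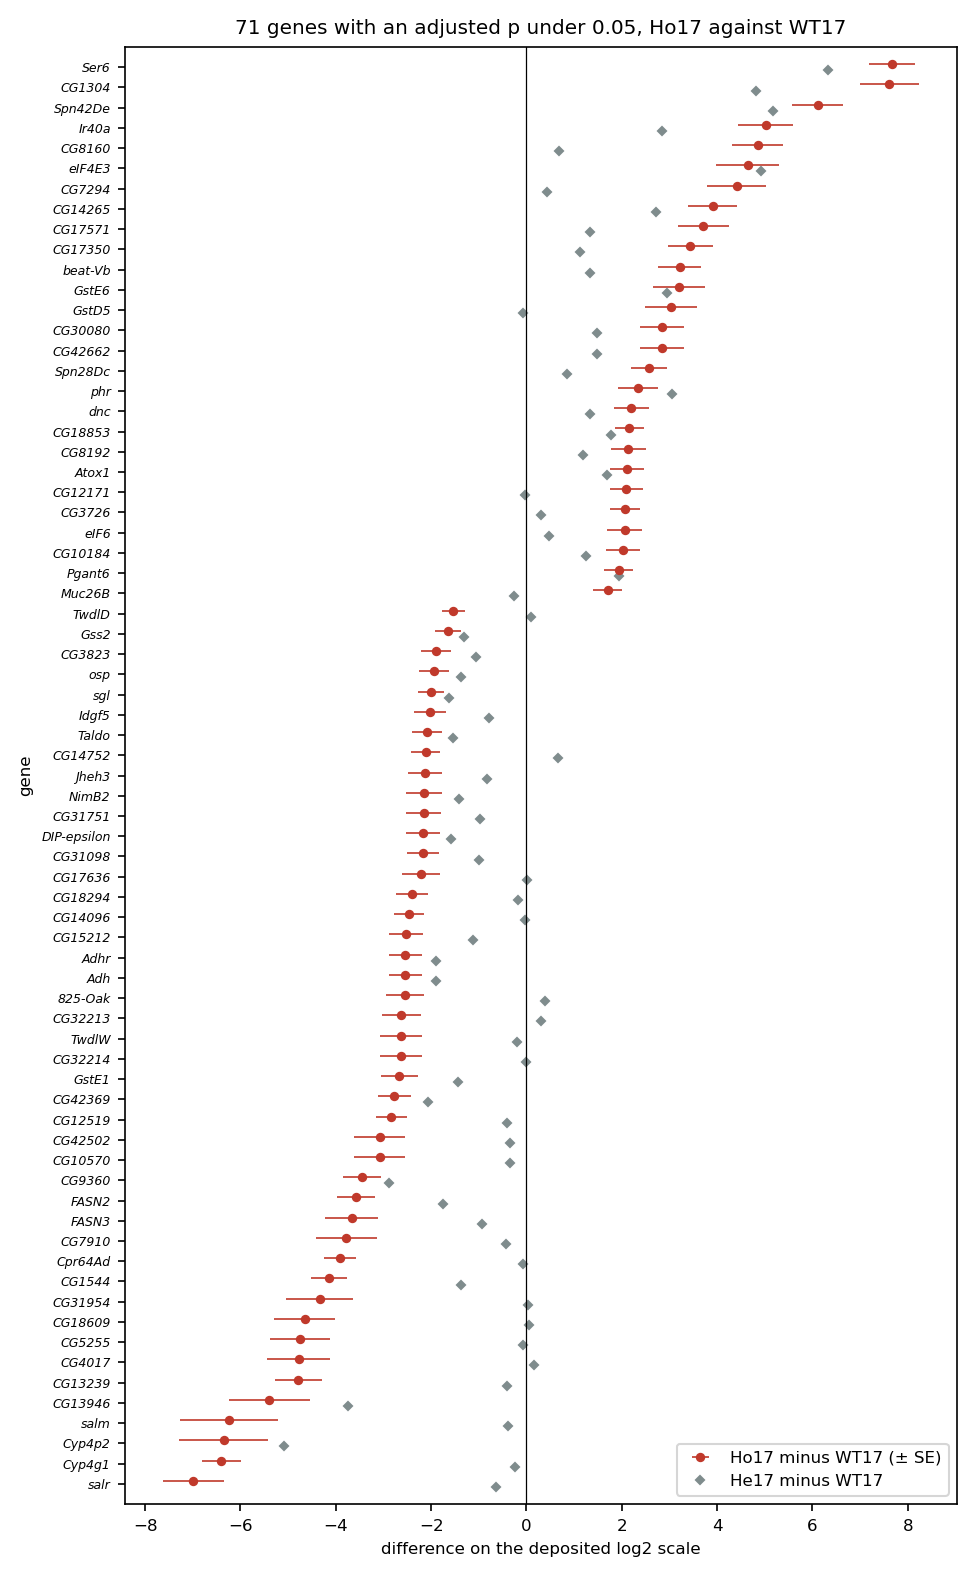
Differences of the 71 called genes on the deposited log2 scale (horizontal axis), ordered by size, with red circles and bars for Ho17 minus WT17 ± SE and grey diamonds for He17 minus WT17. The diamonds lie near the circles for genes such as *Ser6*, *GstE6* and *Cyp4p2* and near 0 for genes such as *Cyp4g1*, *Cpr64Ad* and *CG7294*.

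He17 lay in different places for the higher and the lower genes. On a scale on which WT17 is 0 and Ho17 is 1, He17 was at 0.75 or over for 8 of the 27 higher genes, between 0.25 and 0.75 for 12 and under 0.25 for 7. Of the 44 lower genes, 4 were at 0.75 or over (*Gss2*, *sgl*, *CG9360* and *Cyp4p2*), 18 were between, and 22, which included *salm*, *salr*, *Cyp4g1*, *CG13239*, *Cpr64Ad*, both *Twdl* genes and 6 genes of the block on 3L, were under 0.25. These positions share the Ho17 and WT17 libraries with the call and are given without a test. As He17 also differed from WT17 in strain, they are not a measure of *spalt* dose. Directly compared with He17, 13 genes were lower in Ho17 (0.115%) and 1 was higher, and all 14 were among the 71. Both comparisons use the same Ho17 libraries and the same fit, so this overlap is no separate evidence. The 13 lower ones were *salr*, *Cyp4g1*, *Cpr64Ad*, *CG13239*, *CG1544*, *CG18609*, *CG5255*, *CG4017*, *CG12519*, *CG14096*, *825-Oak*, *CG32213* and *CG14752*. *CG14752* was at 42.5 to 48.9 CPM in Ho17, 190 and 223 CPM in He17, and 157 and 126 CPM in WT17.

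Most Bomanins had higher levels in Ho17 than in WT17, but none passed the test. The Bomanins and related immune induced molecules are short secreted peptides made downstream of the Toll pathway, mostly by the fat body. None of 19 tested members was called in either direction. An unadjusted p under 0.05 was found for 13 in the direction of Ho17 (6.73% of all genes tested) and for none in the other. All Ho17 libraries lay above both WT17 libraries for 14 (13.7% of all genes tested). The median difference was 2.93, and without each library in turn it lay between 2.53 and 3.81. *BomBc1* had 72.6, 117 and 16.1 CPM in Ho17, 14.4 and 0.621 CPM in He17, and 1.63 and 0.560 CPM in WT17 (difference 5.47, SE 1.16, adjusted p = 0.0885, limma). *Dso1* had 330, 341 and 50.2 CPM in Ho17, 56.2 and 5.05 CPM in He17, and 13.7 and 21.8 CPM in WT17 (adjusted p = 0.184, limma). *BomT3* had 68.4, 71.1 and 5.78 CPM in Ho17 and 0.817 and 1.64 CPM in WT17 (adjusted p = 0.119, limma). Ho17b was the highest of the 7 libraries for 14 members and Ho17c the lowest of Ho17 for 16. *Nplp2*, at 222 to 448 CPM in Ho17 and 478 and 465 CPM in WT17, was the 1 member with a negative difference.

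Other arms of the immune response were less uniform. Of 8 tested antimicrobial peptide genes, none was called and all had a positive difference, with a median of 1.42. *Drs*, the antifungal peptide gene *Drosomycin*, had 47.2, 45.5 and 12.4 CPM in Ho17, 4.14 and 2.31 CPM in He17, and 4.16 and 13.0 CPM in WT17, whereas *AttB*, *AttC*, *DptB* and *Dro* stayed at or under 2.60 CPM in every library. Among humoral factors, the thioester protein gene *Tep4* had 511, 462 and 311 CPM in Ho17 against 155 and 230 CPM in WT17 (difference 1.41, SE 0.31, adjusted p = 0.105, limma). *Tsf1*, the iron-binding transferrin, and *Listericin* were high in Ho17a above all, with 39.1, 8.07 and 0.683 CPM and 51.4, 9.47 and 1.21 CPM in Ho17a, Ho17b and Ho17c and at most 0.817 CPM in WT17. The recognition and signalling genes upstream showed medians of 0.29 (10 peptidoglycan recognition proteins) and 0.14 (20 genes of the Toll and Imd pathways), with none called.

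**Figure D3:**
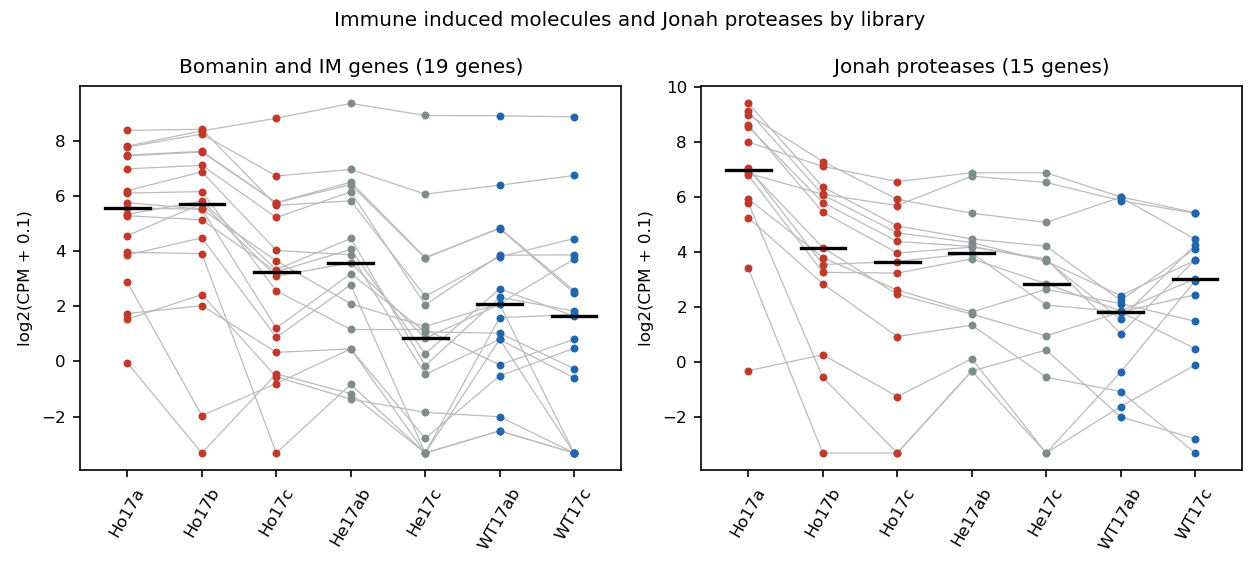
Levels of each tested Bomanin and Jonah gene as log2(CPM + 0.1) (vertical axes) across the libraries Ho17a, Ho17b, Ho17c, He17ab, He17c, WT17ab and WT17c, each point 1 gene, thin lines joining the points of a gene and a thick bar at the median of a library. The Bomanins are high in Ho17a and Ho17b and intermediate in Ho17c, while the Jonah genes peak in Ho17a.

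The Jonah genes, which encode serine proteases of the larval midgut, were high in Ho17a above all. Of 15 tested, none was called, 9 had an unadjusted p under 0.05 in the direction of Ho17 (6.73% of all genes tested), and the median was 2.64. Their summed level was 3402, 670 and 333 CPM in Ho17a, Ho17b and Ho17c, 385 and 320 CPM in He17, and 216 and 194 CPM in WT17. Ho17a was the highest of the 7 libraries for 14 of the 15, and the median was 1.48 without Ho17a and 3.82 without Ho17c. *Jon99Cii* had 673, 81.7 and 30.7 CPM in Ho17, 21.98 and 18.3 CPM in He17, and 4.60 and 17.2 CPM in WT17 (difference 4.43, SE 1.28, adjusted p = 0.185, limma). The trypsin gene *betaTry* had 69.0, 13.2 and 2.47 CPM in Ho17 against 0.446 and 3.75 CPM in WT17, and *kappaTry* 24.9, 37.3 and 26.8 CPM against 28.1 and 34.7 CPM. Among 14 other midgut serine proteases the called member was *Ser6*, which was highest in Ho17b. The 14 had a median of 1.13 and 13 positive differences, and summed to 691, 560 and 328 CPM in Ho17a, Ho17b and Ho17c, 354 and 288 CPM in He17, and 281 and 246 CPM in WT17. The remaining 26 digestive enzymes, such as amylases and maltases, had none called and a median of -0.09.

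The Osiris and heat shock families and the peroxiredoxin genes *Prx6b* and *Prx6c* split the libraries along other lines than genotype. Of 17 tested genes of the Osiris family, a cluster on 3R of membrane protein genes expressed in cells that make cuticle, the summed level was 4131, 210 and 5323 CPM in Ho17a, Ho17b and Ho17c, 1062 and 1814 CPM in He17, and 546 and 787 CPM in WT17. *Osi6* had 1340, 10.4 and 1770 CPM in Ho17, 79.8 and 49.5 CPM in He17, and 42.9 and 23.9 CPM in WT17 (adjusted p = 0.464, limma). At stage 16 every library had more than any of these, from 6371 CPM in Ho16a to 15869 CPM in Ho16c. Ho17b was the lowest of Ho17 for 16 of the 17 genes, and the median of the family was 1.02, against 2.31 without Ho17b, 0.09 without Ho17a and -0.04 without Ho17c. The heat shock protein genes were led by WT17ab, the highest library for 15 of 16 genes. *Hsp70Aa* had 248, 14.2 and 139 CPM in Ho17, 536 and 244 CPM in He17, and 735 and 53.4 CPM in WT17, and the median of the family was -1.02, against 1.61 without WT17ab, -3.69 without WT17c and -0.10 without Ho17b. The peroxiredoxin genes *Prx6b* and *Prx6c* were high in Ho17a, Ho17c and He17c. The 15 tested peroxiredoxins and antioxidant enzymes as a list had none called, a median of -0.22 and 5 positive differences. Ho17b and WT17c were each the highest library for 4 of the 15, so the list did not follow these libraries. *Prx6b* had 820, 49.8 and 1460 CPM in Ho17, 22.1 and 1270 CPM in He17, and 11.4 and 71.3 CPM in WT17 (adjusted p = 0.385, limma). At stage 16 it had 25.6, 40.5 and 794 CPM in Ho16a, Ho16b and Ho16c, 28.4 and 2415 CPM in He16ab and He16c, and 36.4 and 406 CPM in WT16ab and WT16c, so that the library of experiment c was the highest of each group at both stages. What sets these genes apart in single libraries was not tested.

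**Figure D4:**
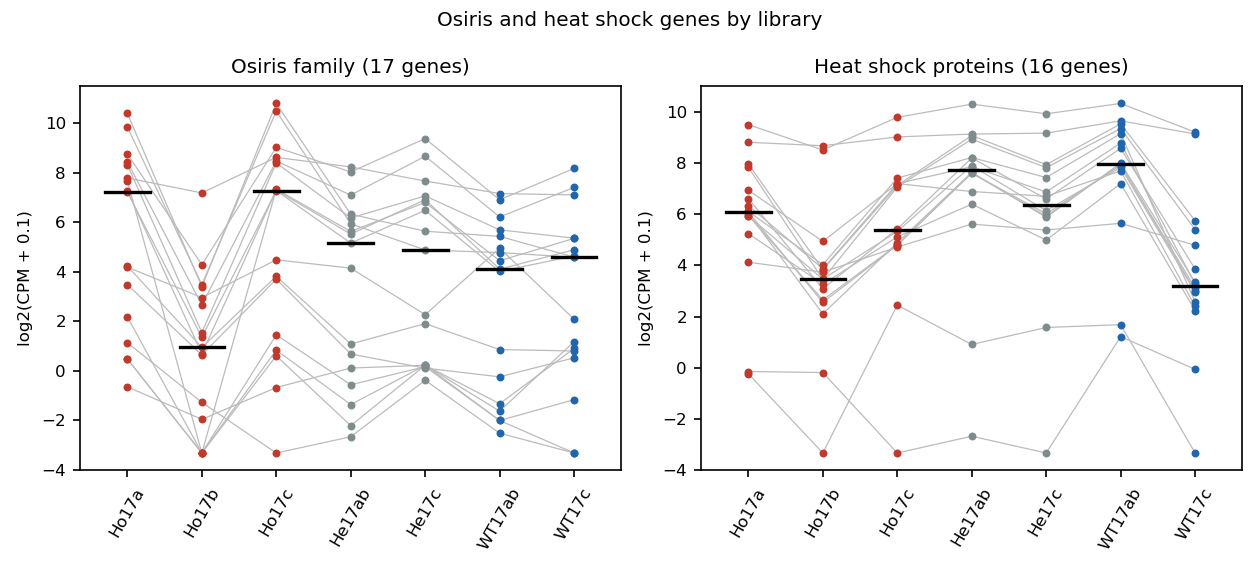
Levels of each tested Osiris and heat shock protein gene as log2(CPM + 0.1) (vertical axes) across the 7 stage 17 libraries from Ho17a to WT17c, each point 1 gene, thin lines joining the points of a gene and a thick bar at the median of a library. Osiris genes are high in Ho17a and Ho17c and low in Ho17b, and heat shock protein genes are highest in WT17ab and low in Ho17b and WT17c.

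No gene on the lists of the nervous system passed the test at this stage. The called genes *beat-Vb*, *DIP-epsilon* and *Ir40a*, given above with a link to neurons or sensory receptors, were not on these lists. None of 35 neuronal adhesion molecules, 22 genes of the axon cytoskeleton, 41 synaptic and pan-neuronal genes and 21 glial genes was called, and their medians were -0.20, 0.00, -0.18 and -0.07. In the same order, 9, 11, 10 and 9 members had a positive difference (47.9% of all genes tested). All Ho17 libraries lay below both WT17 libraries for 8, 4, 9 and 1 members (15.9% of all genes tested). They lay above them for 1, 5, 3 and 3 (13.7%). The pan-neuronal marker *elav* had 104.3, 73.3 and 90.5 CPM in Ho17 and 99.3 and 122 CPM in WT17, and the synaptic vesicle gene *Syt1* 191, 170 and 226 CPM against 168 and 248 CPM. The glial determinant *repo* had 35.8, 40.5 and 18.8 CPM in Ho17 and 18.1 and 26.5 CPM in WT17. Fasciclin III, encoded by *Fas3*, was at 332, 210 and 383 CPM in Ho17 and at 505 and 510 CPM in WT17, without overlap (difference -0.95, SE 0.34, adjusted p = 0.274, limma). *ple*, which encodes the tyrosine hydroxylase of dopaminergic neurons and of the tanning epidermis, had 230, 228 and 331 CPM in Ho17, 187 and 94.5 CPM in He17, and 102 and 70.1 CPM in WT17 (difference 2.07, SE 0.44, adjusted p = 0.0902, limma), whereas *Ddc*, the next enzyme of the pathway, had 122 to 161 CPM in Ho17 and 126 and 140 CPM in WT17. The dopamine transporter *DAT* had 11.5, 16.3 and 6.09 CPM in Ho17 and 21.4 and 49.1 CPM in WT17 (adjusted p = 0.181, limma). A p that misses the threshold does not show that these levels were equal.

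None of 21 genes of chordotonal organs and 18 genes of the tracheal system had an unadjusted p under 0.05, and their medians were -0.05 and 0.08. The chordotonal extracellular protein gene *nompA* had 71.6, 70.8 and 95.7 CPM in Ho17 and 75.9 and 86.2 CPM in WT17. In the trachea, the *knirps* genes *kni* and *knrl*, which set branch identity, had 13.0 to 18.4 CPM and 17.7 to 19.6 CPM in Ho17 against 12.7 and 6.38 CPM and 13.4 and 11.7 CPM in WT17. In CPM neither gene overlapped. Overlap was judged throughout on the deposited values, on which *knrl* did not overlap (adjusted p = 0.416, limma). Among marker lists of other cell types, 26 muscle genes had a median of -0.10 and a summed level of 51530 to 62016 CPM in Ho17 against 66561 and 58784 CPM in WT17, 19 hemocyte genes a median of -0.11 and 9765 to 13660 CPM against 16940 and 13066 CPM, and 15 fat body genes a median of -0.56 and 1526 to 2614 CPM against 2727 and 4275 CPM. *PPO1* and *PPO2*, the prophenoloxidases of crystal cells, had 13.2 to 58.3 CPM and 66.4 to 156 CPM in Ho17, below the 92.98 and 84.1 CPM and 291 and 225 CPM of WT17 (adjusted p = 0.201 and 0.175, limma). *Lsp1gamma*, a storage protein of the fat body, had 0.860, 0 and 1.89 CPM in Ho17 and 12.9 and 30.5 CPM in WT17 (adjusted p = 0.0898, limma). The part of the fat body markers in the decrease of *Adh*, which is 1 of them, was not tested.

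Of 34 genes of fasting and energy metabolism, none was called, 12 had an unadjusted p under 0.05 as lower in Ho17 (7.08% of all genes tested) and 1 as higher, and the median was -0.44. *ACC*, the acetyl-CoA carboxylase that feeds fatty acid synthesis, had 403, 301 and 363 CPM in Ho17, 458 and 376 CPM in He17, and 654 and 1370 CPM in WT17 (difference -1.64, SE 0.32, adjusted p = 0.0623, limma). *fbp*, the gluconeogenic fructose-1,6-bisphosphatase, had 86.8, 61.6 and 62.9 CPM in Ho17 and 125 and 222 CPM in WT17 (difference -1.67, SE 0.34, adjusted p = 0.0709, limma). The receptor of adipokinetic hormone, *AkhR*, had 2.36, 8.33 and 3.83 CPM in Ho17 and 15.2 and 27.6 CPM in WT17 (adjusted p = 0.106, limma). For the 3 genes WT17c was the highest library. Of 73 cytochrome P450 genes, *Cyp4g1* and *Cyp4p2* were lower, and the largest differences in the other direction, which did not pass the test, were those of *Cyp6a8* and of *Cyp6a13* (25.4, 55.2 and 31.6 CPM in Ho17 against 4.38 and 12.2 CPM in WT17, adjusted p = 0.0742, limma). Of 35 glutathione S-transferase genes, *GstE6* and *GstD5* were higher and *GstE1* was lower, and the median was -0.13.

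The study's text names 38 genes for stage 17 that were tested here, a list that was chosen on these libraries and is therefore no independent evidence. Of these, *GstE1* was called, and the median was 2.78. An unadjusted p under 0.05 was found for 23 as higher (6.73% of all genes tested) and for 7 as lower (7.08%). *CG9757* had the highest level, at 2552, 3923 and 491 CPM in Ho17, 187 and 291 CPM in He17, and 207 and 368 CPM in WT17 (difference 2.81, SE 0.75, adjusted p = 0.156, limma). *Edg91*, a gene of the cuticle, had 364, 420 and 289 CPM in Ho17, 130 and 47.5 CPM in He17, and 89.3 and 108 CPM in WT17 (difference 2.35, SE 0.48, adjusted p = 0.0765, limma). *mthl8*, a relative of the longevity gene *methuselah*, had 0 reads in all Ho17 libraries, 15.6 and 0 CPM in He17, and 13.52 and 20.6 CPM in WT17 (adjusted p = 0.110, limma). The spread between the Ho17 libraries was wide for many of these, as with *CG10918* (146, 40.4 and 3.05 CPM in Ho17 against 0.668 and 0.474 CPM in WT17).

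**Figure D5:**
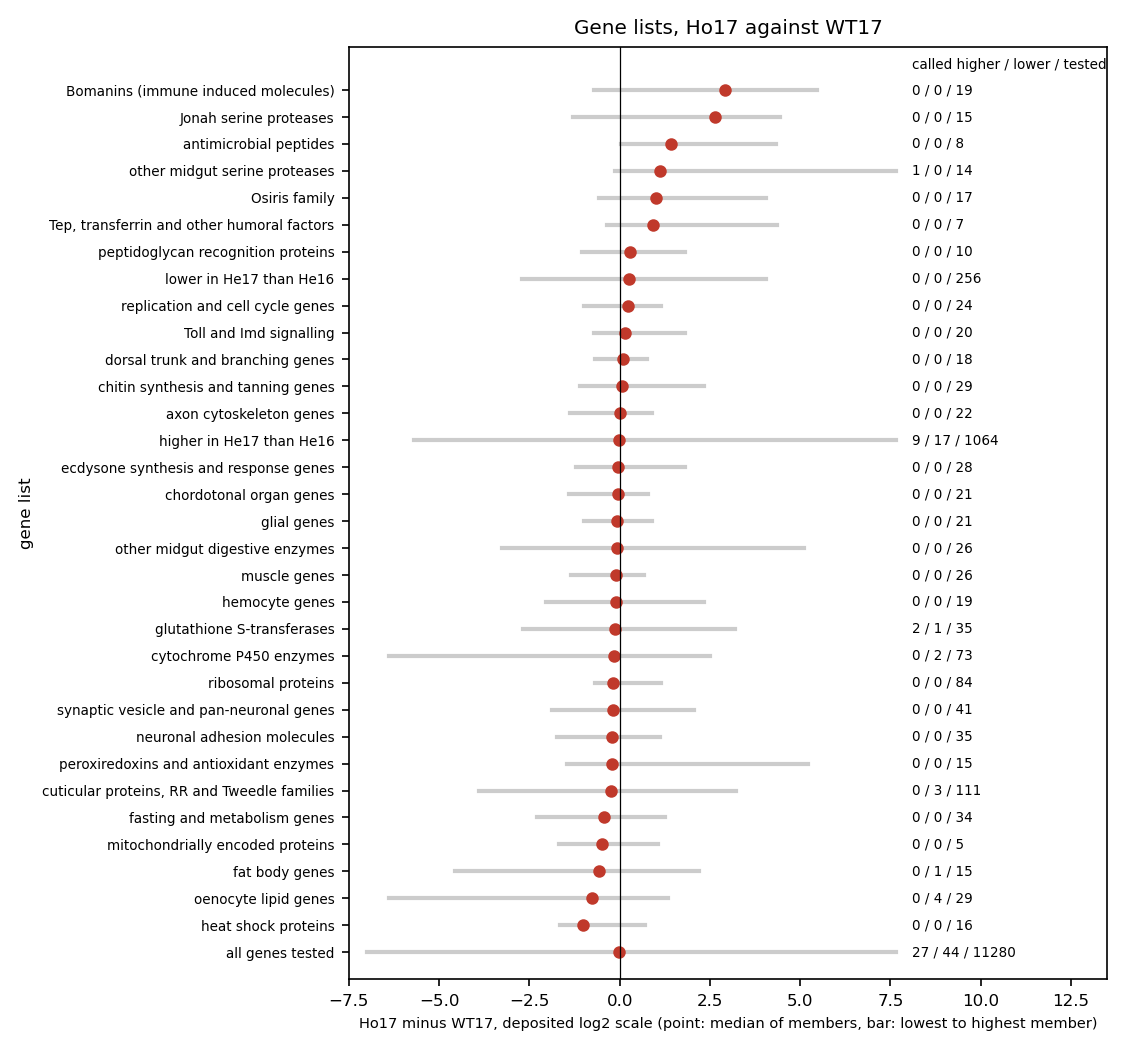
Differences Ho17 minus WT17 on the deposited log2 scale (horizontal axis) for gene lists other than the *spalt* genes, *sala* and the genes the study names, with a point for the median of the tested members and a bar from the lowest to the highest member, beside the counts called higher, called lower and tested. Of the lists drawn, the Bomanins and the Jonah genes have the highest medians (2.93 and 2.64). The medians of the lists of nervous system, muscle and tracheal genes lie between -0.20 and 0.08.

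At stage 16 the comparison of Ho16 with WT16 uses other libraries. Of the 71 genes, 21 of the 27 higher and 41 of the 44 lower ones had the same direction there, against 55.8% of 11265 genes tested at both stages. In a fit of all 14 libraries 5 genes were higher and 6 lower in Ho16 than in WT16 (0.0432% and 0.0518%), and 4 of these, *Spn42De*, *sgl*, *CG1544* and *salr*, were among the 71. *Spn42De* had 30.3, 47.2 and 9.29 CPM in Ho16a, Ho16b and Ho16c against 0.310 and 0.444 CPM in WT16, and *CG1544* had 2.52, 1.32 and 5.95 CPM against 87.5 and 63.7 CPM. *Cyp4g1* was low in Ho16 too, at 19.1, 3.97 and 0 CPM against 128 and 146 CPM in WT16 (difference -6.20, adjusted p = 0.147, limma). *Ir40a* had 12.4, 25.3 and 81.8 CPM in Ho16 and 1.01 and 1.11 CPM in WT16. Only *Ser6* passed a test of the difference between the effects at stages 17 and 16 (0.00863% of 11584 genes; 7.66, adjusted p = 0.0117, limma), and it had 0 reads in all Ho16 and WT16 libraries. That call was lost without Ho17a, WT17ab or WT17c. Genes of developmental time gave a further view. The 1064 genes that were higher in He17 than in He16 (9.19%) had a median difference between Ho17 and WT17 of -0.01. Among them, 9 were called higher and 17 lower, against 0.239% and 0.39% of all genes tested. An unadjusted p under 0.05 was found for 141 as higher (13.3%, against 6.7% of all genes tested) and for 156 as lower (14.7%, against 7.1%). The median near 0 thus covers differences in both directions. The 256 tested genes of those lower in He17 than in He16 (2.23%) had a median of 0.25, with none called. Of the 256, 19 had an unadjusted p under 0.05 as higher (7.4%, against 6.7% of all genes tested) and 7 as lower (2.7%, against 7.1%). The Ho17 libraries differed in these falling genes, which summed to 18667, 8403 and 18500 CPM in Ho17a, Ho17b and Ho17c, 10542 and 10414 CPM in He17, and 10091 and 12237 CPM in WT17. Ho17b was the lowest of Ho17 for 193 of the 256 and the highest of Ho17 for 644 of the 1064 rising genes. The median of the 256 was 0.06 without Ho17a, 0.52 without Ho17b and 0.09 without Ho17c.

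The called genes lay on all large chromosome arms. On 2L, which carries the deficiency, 1.07% of 1965 genes tested were called, 6 higher and 15 lower, on 2R 0.694% of 2306, on 3L 0.619% of 2260, on X 0.549% of 1822 and on 3R 0.357% of 2802. On chromosome 4 none of 78 tested genes was called. Beside the *spalt* genes, the neighbours or near neighbours among the called genes were *Ser6* and *CG1304*, the 6 genes on 3L, *phr* and *CG18853*, *Idgf5* and *GstE1*, *CG5255* and *TwdlW*, *GstE1* (lower) and *GstE6* (higher), with 4 genes between them, and genes that overlap. *phr*, the DNA photolyase gene, and *CG18853* lie close together on 2R and had 8.17 to 11.4 CPM and 28.2 to 30.7 CPM in Ho17, 20.1 and 12.4 CPM and 23.6 and 23.6 CPM in He17, and 1.63 and 1.12 CPM and 7.87 and 6.98 CPM in WT17. He17 was thus as high as Ho17 or higher for *phr*, whose call was kept in none of the 7 fits that leave out 1 library. In 223 of the genes tested, all reads were those of another gene as well.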

How the data were processed

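Poly-A RNA of pooled embryos was sequenced on a GAII. The authors used Bowtie with the FlyBase r5.22 genome, summed reads per gene with no regard to strand, and deposited DESeq's variance-stabilized log2 values (a gene without reads is -0.040). From these, whole reads were computed for 13781 genes (99.9% of 158533 values above 0 reads lay within 0.05 of a whole number). At stage 17, 11280 of 12958 genes with reads had the required 15 reads in total and, in 2 or more libraries, the equivalent of 10 reads at median depth.

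The deposited log2 values of the 7 stage 17 libraries were fitted with limma 3.58.1 (R 4.3.3), with 1 mean per genotype, a variance trend, 4 residual and 5.32 prior degrees of freedom, two-sided, at an adjusted p under 0.05. All 14 libraries were used for stage 16 and for the difference between stages (11584 genes). The threshold, filter, scaling, pseudocount, depth, gene length, block, test and each library were varied. The exact negative binomial test was rewritten with locfit 1.5.9.12. Both tests and the recovery were run on simulated reads. The simulation for the tests gave all genes the same dispersion and held no family of genes raised in a single library. It therefore does not show how the tests behave on such families. Summaries used Python 3.11.15, numpy 2.4.6, pandas 2.3.3 and matplotlib 3.10.9.

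Named genes were *salm*, *salr* and *sala*, the 15 called genes per direction with the largest difference, no overlap and at least 10 CPM in the higher group, the called and up to 3 leading members of each list, and the genes the study names. Other genes were named after their values were seen. The comparison, the lists and the members were chosen with earlier results of these data known. Symbols (for 13704 genes), lengths and gene order were taken from an annotation of Release 6, so no coordinates are given. The authors' own fold changes and Q-PCR were not used here.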

Additional observations from a re-analysis of the deposited data

Results flagged for a closer look

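The effect of the genotype on *Ser6*, the serine protease gene with the largest rise in Ho17, differed between the stages. Ho17 minus WT17 exceeded Ho16 minus WT16 by 7.66 on the log2 scale (adjusted p = 0.0117, limma interaction over 11584 genes). *Ser6* had 33.4, 48.4 and 30.2 CPM in the 3 Ho17 libraries and 0 reads in both WT17 libraries, and 0 reads in the 3 Ho16 and the 2 WT16 libraries. He16ab held 0.0685 CPM and He16c none. The adjusted p was 0.0193 with the experiment letter as a block and 0.0496 without Ho17c, and the call was lost without Ho17a, WT17ab or WT17c. In the fit without Ho17b the interaction called 8 genes, among them *Osi6* (6.83) and *Osi7* (7.02), the genes for which Ho17b was far below the other Ho17 libraries. The cause was not tested.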

How the results depend on the processing

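The counts of genes higher and lower in Ho17 (27 and 44) were 8 and 11 with all 14 libraries in 1 fit, 10 and 18 with only the 5 libraries of Ho17 and WT17, 1 and 1 at an adjusted p of 0.001, 19 and 29 with log2(normalised reads + 0.1), 19 and 41 without a filter, 10 and 30 with precision weights (chosen after seeing the data) and 357 and 334 with the exact negative binomial test. Without 1 library they ranged from 7 to 87 and from 4 to 62. A pseudocount of 1, upper quartile scaling, thinning and removal of a gene length trend stayed within 1.5 times (24 to 36 and 40 to 52). The number of genes with a different effect at stages 17 and 16 (1) was 0 at an adjusted p of 0.001 and 0 to 8 without 1 library.

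The letters were not taken as pairs, since WT17ab joins experiments a and b and only c is a library of its own in both Ho17 and WT17. The deviations of Ho17c and WT17c from their group means correlated at 0.019 (0.235 for Ho17c and He17c, 0.151 for He17c and WT17c). In a group of 2 libraries the deviations mirror each other, so these values say little about a batch. *Prx6b* and the summed mitochondrially encoded genes were highest in the library of experiment c of each group. A batch was not tested. With the letter as a replicate block, 43 genes were higher and 63 lower.

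Called genes had no overlap between the groups, so leaving out a library could not turn them, and none was among the values that turned. Of 2820 alternative values of 149 named genes, 8 turned in direction. Without WT17ab these were *Hsp70Bc* (1.65, range without 1 library down to -4.46), *Hsp70Bbb* (1.34, down to -4.65), *Hsp70Aa* (0.88, down to -4.08), *Hsp70Ba* (1.57, down to -4.57) and *mt:ND4* (-1.70, up to 3.802), without WT17c *Tektin-A* (-0.14, up to 1.70) and *Orc2* (-0.35, up to 2.66), and with the exact test *mt:ND4* (-0.066). Of 36 lists, 17 had a median of the other sign under some alternative. The causes were not tested.

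The 2 WT17 libraries, whose depths differ most, limit the comparison.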

Other observations

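Lists not described above gave few called genes. None of 84 ribosomal protein genes (median -0.18), 24 replication and cell cycle genes (median 0.22), 29 genes of chitin synthesis and tanning (median 0.06) and 28 genes of ecdysone synthesis and response (median -0.05) was called. The replication and cell cycle genes summed to 518, 287 and 256 CPM in Ho17a, Ho17b and Ho17c, 284 and 266 CPM in He17, and 289 and 266 CPM in WT17, so that Ho17a stood apart from the other 6 libraries. The mitochondrially encoded genes with reads summed to 52.5, 79.8 and 235 CPM in Ho17, 33.3 and 86.6 CPM in He17, and 20.2 and 363 CPM in WT17, and the libraries of experiment c were the highest of each group.

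Among muscle genes, the actin gene *Act87E* had 499, 631 and 798 CPM in Ho17, 2224 and 2183 CPM in He17, and 1740 and 1117 CPM in WT17 (difference -1.24, SE 0.32, adjusted p = 0.152, limma), whereas the more abundant actin gene *Act57B* overlapped between the groups. The troponin C gene *TpnC47D* had 185, 257 and 278 CPM in Ho17, 606 and 336 CPM in He17, and 565 and 450 CPM in WT17 (adjusted p = 0.177, limma). Of the antioxidant genes, the catalase gene *Cat* had 136, 86.7 and 139 CPM in Ho17, 229 and 183 CPM in He17, and 237 and 274 CPM in WT17 (adjusted p = 0.0981, limma).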
